A study of Solanum tuberosum with 12 samples.

Results

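The transcripts described here are 6 of the 54416 transcripts with values in every library. They make up the category of genes related to transposable elements in the study's list. Their annotations are a retrotransposon protein (PGSC0003DMT400041204), a transposase (PGSC0003DMT400003803), the mudrA gene of a MuDR transposon (PGSC0003DMT400085583), another transposase (PGSC0003DMT400039369), a LINE-type retrotransposon (PGSC0003DMT400092517) and a partial TNP2 (PGSC0003DMT400046437). All of them come from the study's list of transcripts changed between *StRIK*-RNAi and Wild type periderm. Their difference in the libraries used for that list chose them and is given as a description, with no test. The study's own test values set the threshold of that list and were not used here.

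RNA was sequenced from the periderm, the corky skin, of freshly harvested tubers of the tetraploid potato cultivar Désirée grown in soil. *StRIK*-RNAi lines 9, 12 and 47 carry a hairpin made from a fragment of *StRIK*, and each line is 1 independent transformation event. Every line gave 3 libraries, against 3 libraries of the untransformed Wild type. The lines were regenerated with phytohormones from leaf explants infected with *Agrobacterium*, as kanamycin-resistant plants. No plant transformed without the hairpin is among the 12 libraries. Silencing of *StRIK* and passage through transformation and regeneration therefore cannot be told apart. The 3 libraries of a line share its transformation event, so differences between libraries of a line do not include differences between events. Replicates 2 and 3 of line 9 and replicate 1 of line 12 took no part in the study's comparison, which used the other 6 RNAi libraries. These 3 libraries are called outside libraries here.

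Transposable elements are stretches of DNA that can move or copy themselves within a genome. Retrotransposons, LINEs among them, are copied through an RNA intermediate and reverse transcriptase, while DNA transposons are cut out and inserted by a transposase. Plant genomes hold many inactive copies, which are kept silent largely by DNA methylation and small RNAs, and some transposase genes have become ordinary host genes. *StRIK* encodes a protein with KH domains, which bind RNA, and its maize relative RIK was found as a partner of ROUGH SHEATH2, a repressor of homeobox genes.

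A transcript level does not measure movement of an element. Reads were mapped to transcripts of the doubled monoploid *S. tuberosum* Group Phureja, and reads matching several copies were divided among them by the counting program, so the level of a transcript may include reads from near-identical copies elsewhere in the tetraploid genome. In these bulk samples, fewer cells that express a transcript and less of it per cell cannot be told apart.

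A set of 4 oligonucleotides is shown because the study used them to assay 2 of these transcripts in tubers grown at another time. They are its RT-qPCR primers for the retrotransposon protein and for a transposase, listed by name without an identifier. The transposase pair was taken to be that of PGSC0003DMT400039369 from the study's RT-qPCR plot, and neither pair was matched to a transcript sequence here. The primers are written 5′ to 3′ in lower case with no base singled out.
Retrotransposon protein forward: tggctcatcacgaaaagaaca
Retrotransposon protein reverse: aaaggctcgacttacacaccac
Transposase forward: atgagaagcccgattggatg
Transposase reverse: gatgagtccctggtgccttt
The primers of the retrotransposon protein are 21 and 22 bases long with 42.9% and 50% G or C, and those of the transposase are both 20 bases long with 50% and 55%.

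In *StRIK*-RNAi periderm, 3 members were higher and 3 were lower than in the Wild type. The retrotransposon protein carries a retrotransposon name, but its closest Arabidopsis protein contains a nuclease domain derived from the transposase of Harbinger DNA transposons. It had 568, 464 and 408 normalized effective counts in replicates 1, 2 and 3 of line 9, 487, 464 and 421 in line 12, and 449, 479 and 595 in line 47, against 14, 63.3 and 28.1 in the Wild type. Normalized effective counts are the deposited estimated counts scaled to a common library size. The lowest RNAi library stood far above the highest Wild type library, and the lines overlapped each other.

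The transposase PGSC0003DMT400003803, whose Arabidopsis match is a protein of unknown function, was likewise higher in every RNAi library than in any Wild type library. It had 131, 89.9 and 64.8 normalized effective counts in line 9, 125, 87.8 and 81 in line 12 and 94.7, 82.5 and 87.5 in line 47, against 4.53, 13.2 and 2.24 in the Wild type. Wild type replicate 2 was the highest Wild type library for this transcript and for the retrotransposon protein.

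The third member that was higher in RNAi periderm, MuDR mudrA, is named after the autonomous element of the Mutator family of maize, whose mudrA gene encodes the transposase. It was seen only at a few counts. Line 9 had 3.4, 5.82 and 7.37 normalized effective counts, line 12 had 6.01, 8 and 5.91, and line 47 had 7.91, 1.18 and 5.66, against 0 in each of the 3 Wild type libraries. A count of 0 allows up to 3 counts in a library of this depth, so the mean of the 9 RNAi libraries was at least 1.9-fold higher than the Wild type, and line 47 replicate 2 was itself under that limit.

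Transposase PGSC0003DMT400039369, which has no Arabidopsis match in the study's annotation, was the most even member among the RNAi libraries. It had 314, 266 and 315 normalized effective counts in line 9, 261, 285 and 308 in line 12 and 305, 294 and 313 in line 47, against 939, 1505 and 1216 in the Wild type. The 9 RNAi libraries averaged 296 ± 20.8 (SD, n = 9) and the Wild type 1220 ± 283 (SD, n = 3), so that the mean in RNAi periderm was 24.2% of the Wild type mean.

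The LINE-type retrotransposon was close to the detection limit in RNAi periderm. LINEs are retrotransposons without long terminal repeats. Line 9 had 0, 1.51 and 3.33 normalized effective counts, line 12 had 0.8, 0.9 and 2.82, and line 47 had 1.76, 0 and 0.73, against 59.8, 45.8 and 39.8 in the Wild type. Lines 12 and 47 were at or under 3 counts in every library, which makes them at least 16.2-fold lower than the Wild type, and line 9 replicate 3 alone exceeded 3.

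TNP2 is a transposase of CACTA-type DNA transposons, first described in snapdragon. Its partial transcript had 0, 0 and 8.43 normalized effective counts in line 9, 0, 6.03 and 1.58 in line 12 and 1.49, 0 and 0 in line 47, against 35.7, 11.5 and 15.1 in the Wild type. It was the most uneven member. Line 9 replicate 3 stood just under the lowest Wild type library, while line 47 was at least 6.92-fold lower than the Wild type.

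**Figure D1:**
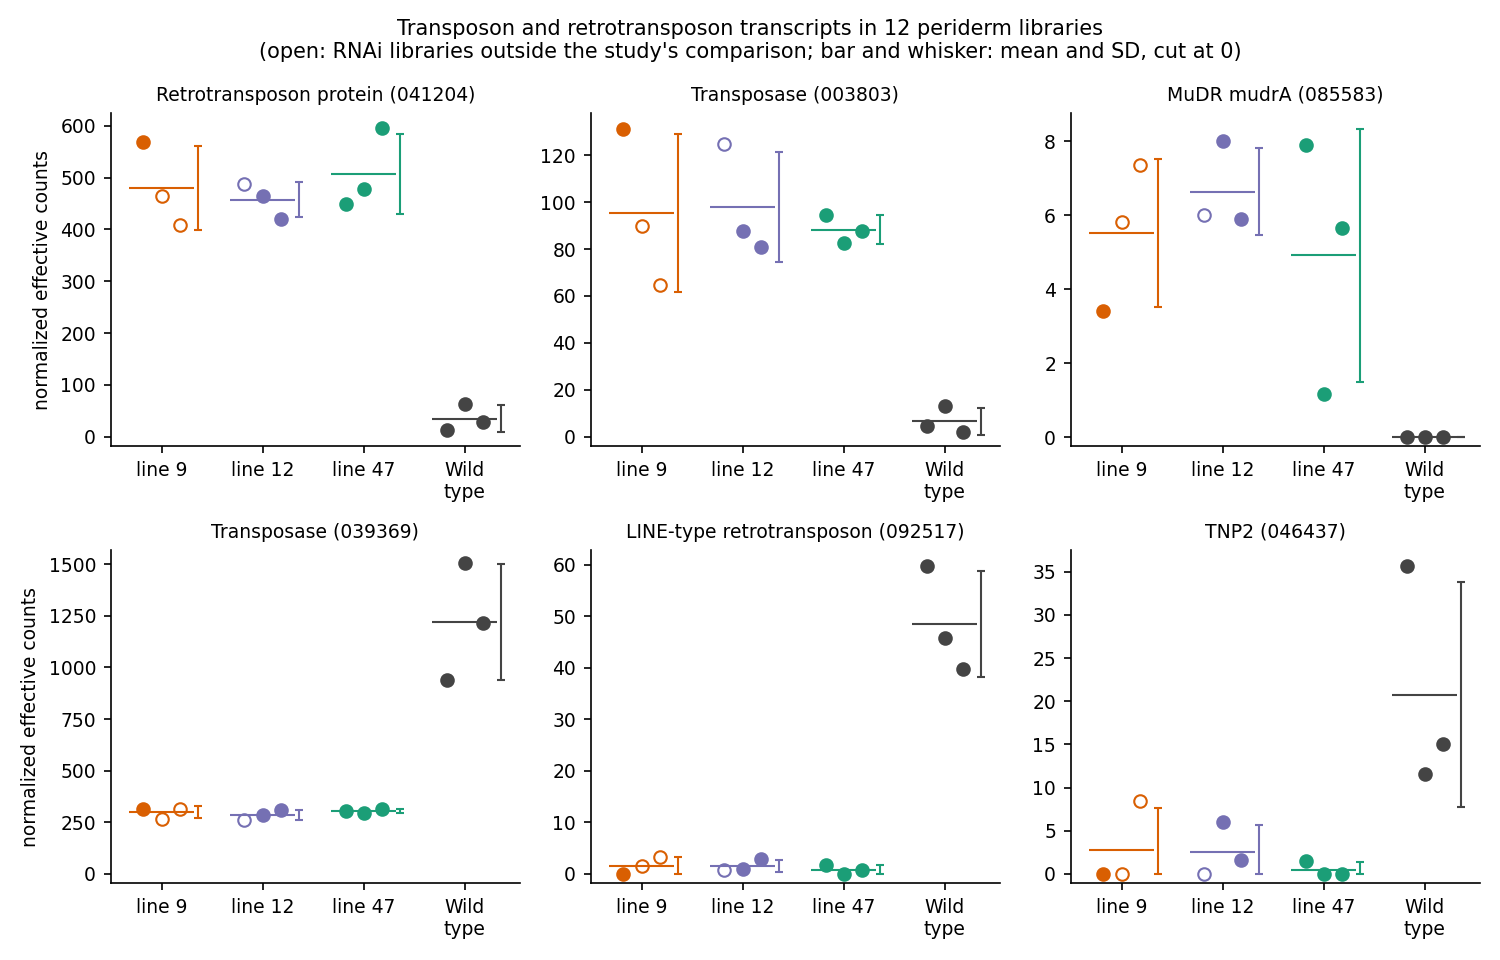
Normalized effective counts of the 6 transcripts (y axes, each on its own scale) in the libraries of RNAi lines 9, 12 and 47 and of the Wild type (x axis). Points are libraries, open where the study's comparison did not use them, and bars and whiskers are means and SD (n = 3), with whiskers ended at 0. In every panel the 9 RNAi libraries lie on 1 side of the 3 Wild type libraries.

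All 6 members separated the 9 RNAi libraries from the Wild type without overlap. Of 38364 transcripts tested over the 12 libraries, 0.719% had every RNAi library above every Wild type library and 0.558% had every one below. Of these RNAi libraries, 6 chose the members, so nothing is read from that count. In the study's own 9 libraries, the quasi-likelihood test of edgeR called 4 of the 6 members and 16 of 37552 transcripts (0.0426%) at an adjusted p under 0.05, and again nothing is read from it. MuDR mudrA and TNP2, the members with the fewest counts, were the 2 not called.

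With more than 3 normalized effective counts taken as on, 3 members differed in state between most RNAi libraries and the whole Wild type. MuDR mudrA was on in 8 of 9 RNAi libraries and in 0 of 3 Wild type libraries. This pattern of on in at least 8 against 0 was met by 0.0808% of the 38364 transcripts tested over the 12 libraries. The LINE-type retrotransposon was off in 8 of 9 RNAi libraries and on in all 3 Wild type libraries, which 0.0339% met. TNP2 was off in 7 of 9 and on in all 3, and 0.112% of transcripts were off in at least 7 of 9. The retrotransposon protein and transposase PGSC0003DMT400039369 were on in all 12 libraries and differed in level only, and transposase PGSC0003DMT400003803 was off in Wild type replicate 3 alone. At this limit, no member was on in all libraries of 1 genotype and off in all of the other. With a limit of 1 count MuDR mudrA was, and with a limit of 10 counts the LINE-type retrotransposon and TNP2 were. Of the 38364 transcripts tested, 12 (0.0313%) were on in all 9 RNAi libraries and off in the Wild type, and 0 (0%) showed the opposite. The Wild type and 6 of these RNAi libraries chose the members, so nothing is read from these shares.

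The 3 outside libraries give values that did not choose the members, although the Wild type libraries beside them are those of the study's comparison. Each outside library also shares its line, and so its transformation event, with libraries that did choose the members. The outside libraries therefore add no further event, and not every RNAi line is among them. The SE and p of this comparison treat the 3 libraries as independent and do not fully cover differences between events. In the outside libraries, all 6 members lay on the same side of the Wild type as in the other RNAi libraries. The retrotransposon protein averaged 453 ± 40.4 in the outside libraries and 35.1 ± 25.4 normalized effective counts in the Wild type (SD, n = 3 each), a log2 ratio of 3.68 (SE 0.47). Transposase PGSC0003DMT400003803 averaged 93.1 ± 30.1 in the outside libraries and 6.65 ± 5.78 in the Wild type, a log2 ratio of 3.82 (SE 0.54). Transposase PGSC0003DMT400039369 averaged 281 ± 29.8 in the outside libraries and 1220 ± 283 in the Wild type, a log2 ratio of −2.12 (SE 0.21).

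The remaining members were scarcer in these libraries. The LINE-type retrotransposon averaged 1.88 ± 1.3 in the outside libraries and 48.5 ± 10.3 in the Wild type, with a fitted log2 ratio of −4.60 (SE 0.43) that rests on very few RNAi counts. TNP2 averaged 2.81 ± 4.87 in the outside libraries, all of it from line 9 replicate 3, and 20.8 ± 13 in the Wild type. MuDR mudrA averaged 6.4 ± 0.848 in the outside libraries and 0 in the Wild type, at least 2.13-fold higher.

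No transcript passed the threshold in this comparison. EdgeR's quasi-likelihood test called 0 of 36792 transcripts (0%) at an adjusted p under 0.05, and 0 of 6 members. At an unadjusted p under 0.05 it took 4448 transcripts, 12.1% of those tested, and 6 of 6 members. Adjusted p was 0.11 for the LINE-type retrotransposon, 0.11 for transposase PGSC0003DMT400039369, 0.121 for the retrotransposon protein, 0.169 for transposase PGSC0003DMT400003803, 0.299 for MuDR mudrA and 0.38 for TNP2, and by rank of p these stood at places 2, 3, 16, 25, 320 and 2666. DESeq2 called 504 transcripts (1.37%), among them the retrotransposon protein, both transposases and the LINE-type retrotransposon. It gave no adjusted p for MuDR mudrA. The members were already found changed against these Wild type libraries, so their counts and ranks here are a description. Groups that do not overlap were common with 3 libraries against 3, since 8.48% of transcripts had all outside libraries above the Wild type and 8.41% had all below.

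The 3 lines lay close together in the 3 members with enough counts to compare. Against the Wild type, the log2 ratio of the retrotransposon protein was 3.77 in line 9, 3.69 in line 12 and 3.85 in line 47 (SE 0.39 each). For transposase PGSC0003DMT400003803 it was 3.86, 3.90 and 3.75 in the same order (SE 0.45 each), and for transposase PGSC0003DMT400039369 it was −2.03, −2.10 and −2.01 (SE 0.18 each). These comparisons share the 3 Wild type libraries and largely repeat the contrast that chose the members. Wild type replicate 2 weighed on both members with higher levels, since without it the line 9 ratios became 4.52 for the retrotransposon protein and 4.88 for transposase PGSC0003DMT400003803.

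**Figure D2:**
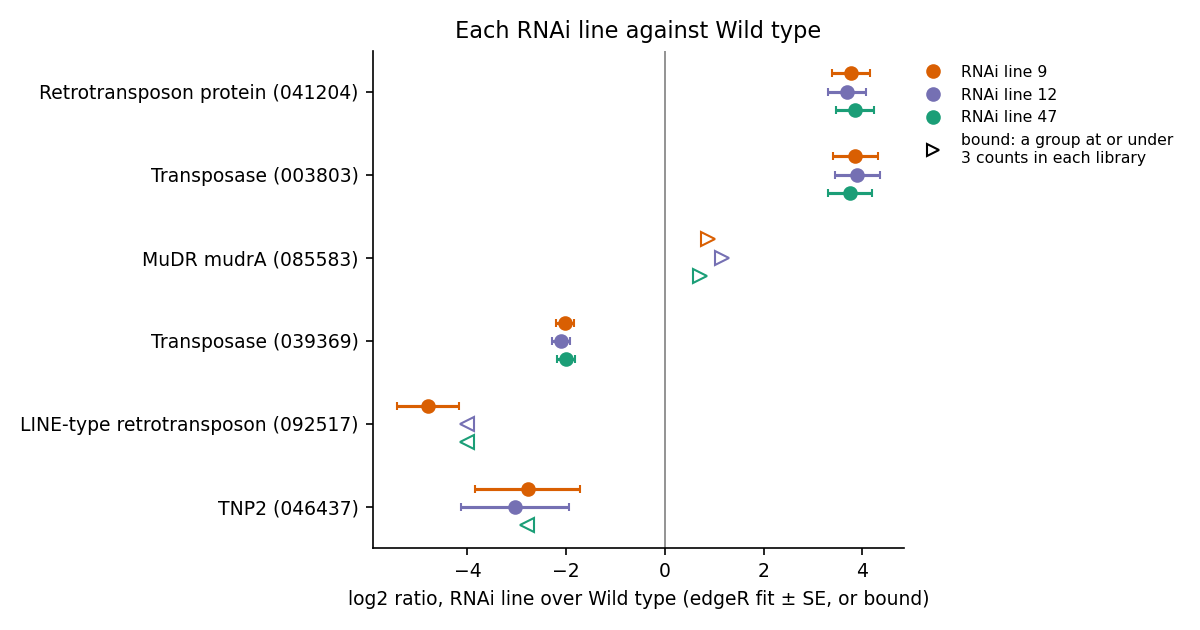
Log2 ratio of each RNAi line over the Wild type (x axis) for the 6 transcripts (rows). Filled points are edgeR estimates with their SE, and open triangles are bounds where a group had at most 3 normalized effective counts in every library. The lines of transposase PGSC0003DMT400039369 lie between −2.10 and −2.01.

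The lines were also tested jointly within the 9 RNAi libraries. The choice of members did not compare lines, but it pooled 6 of these libraries as 1 group and so favours transcripts whose lines lie close, here and in the 2 further comparisons within RNAi periderm below. The joint test called 0 of 6 members and 14 of 37723 transcripts, or 0.0371%. The widest gap between lines was 0.10 on the log2 scale for transposase PGSC0003DMT400039369, 0.15 for the retrotransposon protein, 0.15 for transposase PGSC0003DMT400003803, 0.34 for MuDR mudrA, 0.76 for the LINE-type retrotransposon and 2.77 for TNP2, beside a median of 0.44 over all transcripts tested. Adjusted p of the members ranged between 0.694 and 0.946 in edgeR's quasi-likelihood test. At an unadjusted p under 0.05, 12.6% of transcripts and 0 of 6 members passed. DESeq2 called 871 of 37723 transcripts and 0 members, but gave no adjusted p for the LINE-type retrotransposon and TNP2. For TNP2, with 0 counts in 5 RNAi libraries, gaps between lines were not resolved at this depth.

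Spread over the 9 RNAi libraries differed among the abundant members. The study's comparison pooled 6 of these libraries, which favours transcripts that vary little among them, so the spread is a description. The coefficient of variation was 7.03% for transposase PGSC0003DMT400039369, and 1.38% of 30863 transcripts with a mean of at least 10 counts in RNAi periderm varied less. It was 12.9% for the retrotransposon protein, where 16.2% varied less, and 22.6% for transposase PGSC0003DMT400003803, where 50.6% varied less. In the Wild type (n = 3) the coefficient was 72.3% for the retrotransposon protein, where 97.6% of transcripts varied less, and 62.7% for TNP2, where 95.7% varied less. It was 23.2% for transposase PGSC0003DMT400039369 and 21.2% for the LINE-type retrotransposon, where 56.4% and 51.7% varied less.

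Levels of the members were compared with the remaining *StRIK* transcript, summed over the 3 isoforms that the hairpin targets. *StRIK* stood at 85.3% of the Wild type mean in line 9 replicate 2, at 72% in line 9 replicate 3 and at 60.3% in line 12 replicate 1, and between 41.8% and 58.4% in the other 6 RNAi libraries. The study kept RNAi libraries whose *StRIK* lay below a set share of the Wild type. By the sum used here, line 12 replicate 1 would also have met that limit. Line 9 replicate 2, the RNAi library with the most *StRIK*, had 464 normalized effective counts of the retrotransposon protein, 89.9 of transposase PGSC0003DMT400003803, 266 of transposase PGSC0003DMT400039369, 1.51 of the LINE-type retrotransposon, 0 of TNP2 and 5.82 of MuDR mudrA. Each of these values lay within the range of the other RNAi libraries and outside that of the Wild type.

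The slope of each member on *StRIK* abundance within the 9 RNAi libraries, in log2 units per doubling of *StRIK*, was not called. It was 0.00 (SE 0.23) for the retrotransposon protein, −0.16 (SE 0.35) for transposase PGSC0003DMT400003803 and −0.12 (SE 0.17) for transposase PGSC0003DMT400039369. The scarce members left wide errors, with 0.78 (SE 2.24) for TNP2, −0.27 (SE 0.80) for MuDR mudrA and −0.08 (SE 1.40) for the LINE-type retrotransposon. EdgeR's quasi-likelihood test called 2 of 37723 transcripts (0.0053%) and 0 of 6 members, whose adjusted p lay between 0.761 and 0.999. DESeq2 called 1267 of 37723 transcripts and 0 members, but gave no adjusted p for MuDR mudrA, the LINE-type retrotransposon and TNP2. At an unadjusted p under 0.05, 15.4% of transcripts and 0 of 6 members passed. The slope was fitted without a term for line, and the libraries with the most *StRIK* are of line 9. It therefore does not separate *StRIK* level from line. Its SE and p treat the 9 libraries as independent and do not fully cover differences between events. With line as a factor, 0 members were called.

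**Figure D3:**
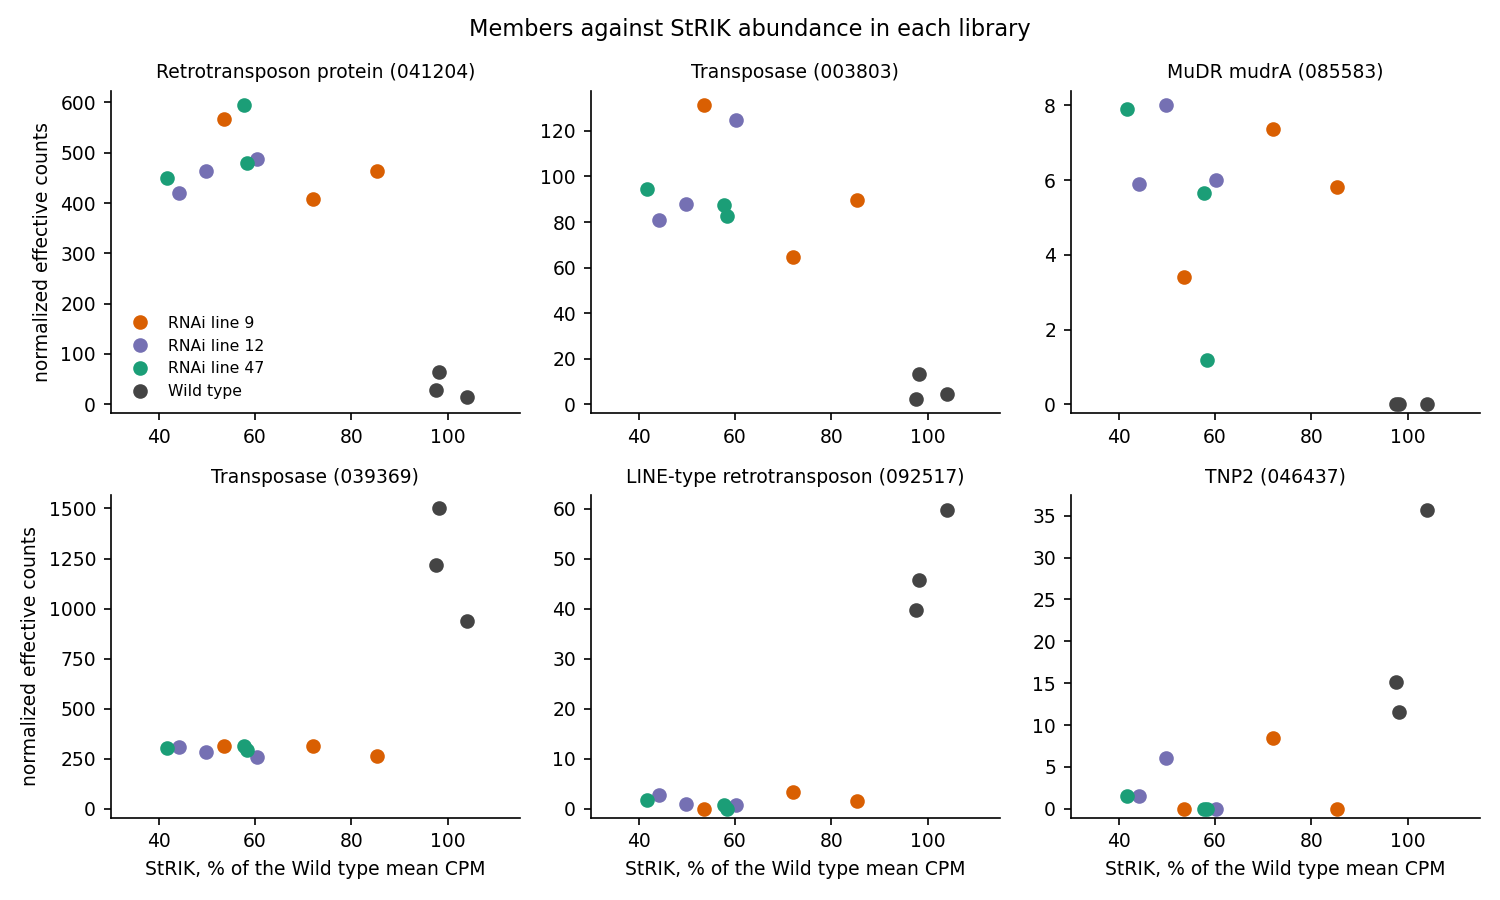
Normalized effective counts of each member (y axes) against *StRIK* abundance as a percent of the Wild type mean CPM (x axes) in the 12 libraries, coloured by line. The RNAi library at 85.3% *StRIK* sits with the other RNAi libraries in each panel.

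The outside libraries were also set directly against the 6 RNAi libraries of the study's comparison. By the sum over the 3 targeted isoforms, each outside library held more *StRIK* than any of those 6. On the representative isoform alone the groups overlapped. The outside libraries had 20.2, 16.1 and 15.8 CPM of it, and line 47 replicate 3 had 16.5. The retrotransposon protein averaged 453 ± 40.4 in the 3 outside libraries and 496 ± 69.4 in the other 6, a log2 ratio of −0.13 (SE 0.14). Transposase PGSC0003DMT400003803 averaged 93.1 ± 30.1 and 94.1 ± 18.8 in the same order, a log2 ratio of −0.02 (SE 0.22). Transposase PGSC0003DMT400039369 averaged 281 ± 29.8 and 303 ± 11.4, a log2 ratio of −0.11 (SE 0.11). EdgeR called 0 of 37723 transcripts (0%) and 0 of 6 members. Adjusted p of the members lay between 0.677 and 0.979. At an unadjusted p under 0.05, 5560 transcripts (14.7%) and 0 of 6 members passed. DESeq2 called 1139 transcripts and 0 members. Line 47 has no outside library, so *StRIK* level and line are not separated in this comparison. Its SE and p treat libraries as independent and do not fully cover differences between events.

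File names carry a lane tag, which is 6 for the Wild type and for line 47 replicates 2 and 3, and 7 for the other 7 RNAi libraries. The sources do not say what the tag marks. Outside line 47, tag and genotype cannot be told apart. Within tag 6, the retrotransposon protein had 479 and 595 normalized effective counts in line 47, transposase PGSC0003DMT400003803 had 82.5 and 87.5, and transposase PGSC0003DMT400039369 had 294 and 313, and all 6 members again lay apart from the Wild type. Over all transcripts with these 2 libraries, 9.02% lay above the Wild type and 8.62% below it. These 2 libraries and the Wild type took part in the choice of members, so nothing is read from that separation. The same 2 libraries held 1868 to 18360 normalized effective counts of each of 4 transcripts annotated as rRNA intron-encoded homing endonucleases, against 36.1 to 1241 in the other 10 libraries. The part of this difference in the members' values was not tested. In the 7 RNAi libraries of tag 7 the retrotransposon protein spanned 408 to 568 counts and transposase PGSC0003DMT400039369 spanned 261 to 315.

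Transcripts with a number close to that of a member can be isoforms of its gene or gene models beside it, and positions on the chromosomes were not used here. Of 60 transcripts numbered within 10 of a member, 31 could be tested in the outside libraries against the Wild type, and edgeR called 0 of them and took 5 at an unadjusted p under 0.05, while DESeq2 called 1, PGSC0003DMT400041194. Over all transcripts these shares were 12.1% at an unadjusted p and 1.37% for DESeq2, so neither count is a result about the neighbours. Around transposase PGSC0003DMT400039369, 5 neighbours were tested and 0 had an unadjusted p under 0.05. None of the 17 transcripts near MuDR mudrA had enough counts. The 3 neighbours named below are those with the largest fitted log2 ratios.

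Both immediate neighbours of TNP2 were lower in RNAi periderm on average. PGSC0003DMT400046438, a transcript of unknown function that is also in the study's list, had 9.33, 1.12 and 23.2 normalized effective counts in line 9, 3.57, 19.8 and 17.8 in line 12 and 2.6, 1.32 and 2.12 in line 47, against 74.3, 43.1 and 50.9 in the Wild type. Its log2 ratio in the outside libraries was −2.60 (SE 0.77, edgeR adjusted p = 0.335). The 2 RNAi libraries with the most TNP2, line 9 replicate 3 and line 12 replicate 2, were also the 2 with the most PGSC0003DMT400046438. PGSC0003DMT400046436 on the other side had 0 to 7.46 counts with a median of 2.29 over the 9 RNAi libraries, against 4.86, 11.6 and 9.3 in the Wild type, and its groups overlapped.

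The remaining named neighbour, PGSC0003DMT400041194, is of unknown function, is in the study's list and is numbered 10 below the retrotransposon protein. It had 11, 10.2 and 10.1 normalized effective counts in line 9, 27, 28.1 and 11.3 in line 12 and 16.7, 21.6 and 11.7 in line 47, against 0, 1.14 and 0 in the Wild type, which makes the RNAi mean at least 5.47-fold higher. It was on in every RNAi library and off in the Wild type, but its edgeR adjusted p in the outside libraries was 0.24. The 7 tested transcripts numbered between it and 9 above the retrotransposon protein had log2 ratios between −0.16 and 0.57.

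**Figure D4:**
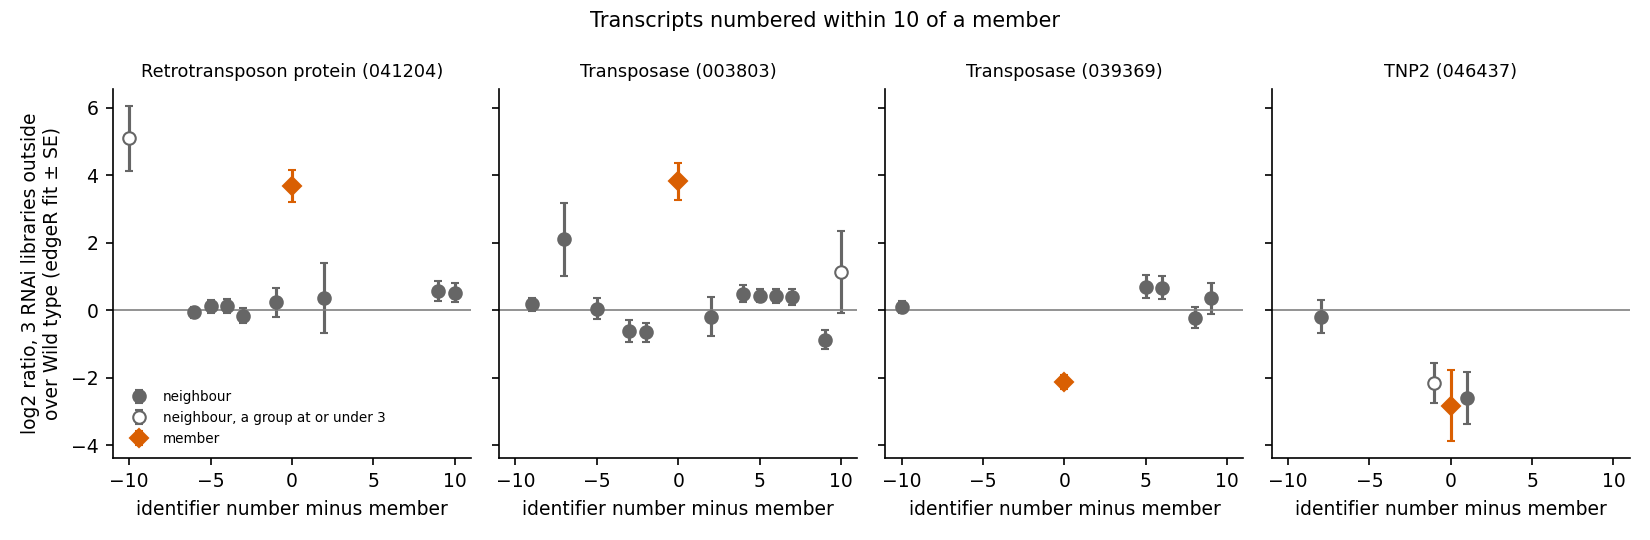
Log2 ratio of the 3 outside RNAi libraries over the Wild type (y axis, edgeR estimate with SE) for transcripts by the distance of their number from that of a member (x axis), for the 4 members with at least 3 tested neighbours. Diamonds are members, filled circles are neighbours, and open circles are neighbours with a group at or under 3 counts, whose estimate is not a bound. Neighbours of TNP2 at −1 and 1 lie at −2.16 and −2.60.

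Over the 12 libraries, the levels most like those of the retrotransposon protein were of PGSC0003DMT400063700, an RNase H family protein (Pearson r = 0.997 on log2 CPM), PGSC0003DMT400023873 of unknown function (r = 0.993) and the member transposase PGSC0003DMT400003803 (r = 0.979). The same transcripts were the most like transposase PGSC0003DMT400003803, with r between 0.975 and 0.984. The points in these correlations share the step between genotypes, so r describes that step as much as anything else. PGSC0003DMT400063700 had 639 to 883 normalized effective counts with a median of 754 in RNAi periderm, against 23.8, 87.8 and 32.2 in the Wild type. Wild type replicate 2 was again the highest Wild type library. Within each library, the retrotransposon protein amounted to 0.526 to 0.679 of the counts of PGSC0003DMT400063700 in RNAi periderm and 0.589 to 0.872 in the Wild type.

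Among the members that were lower, transposase PGSC0003DMT400039369 was most like the LINE-type retrotransposon (r = 0.963), followed by PGSC0003DMT400007954 (r = 0.922) and PGSC0003DMT400039977 (r = 0.885). After that transposase, the LINE-type retrotransposon was most like 2 transducin transcripts, PGSC0003DMT400054498 (r = 0.917) and PGSC0003DMT400054500 (r = 0.914). Of the 12 places in these lists, 10 were taken by transcripts of the study's list, which were chosen on 9 of the same libraries.

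**Figure D5:**
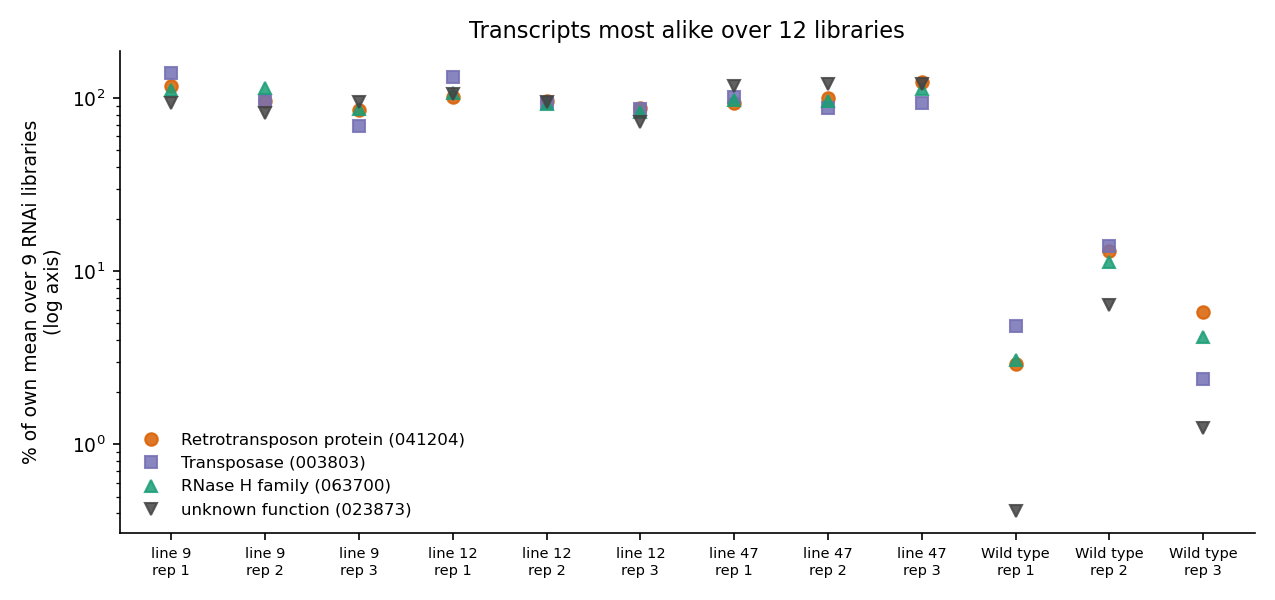
Levels of the retrotransposon protein, transposase PGSC0003DMT400003803, RNase H family transcript PGSC0003DMT400063700 and transcript PGSC0003DMT400023873 in each library (x axis), as a percent of the transcript's own mean over the 9 RNAi libraries (log y axis). This scaling places the 4 transcripts near each other in RNAi libraries, so their nearness there is not a result. All 4 are highest among Wild type libraries in replicate 2.

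Within the 9 RNAi libraries alone, the lists were made of other transcripts, and 0 of 12 places went to the study's list. The retrotransposon protein was most like PGSC0003DMT400036815 (r = 0.948), PGSC0003DMT400001986 (r = 0.942) and PGSC0003DMT400064369 (r = 0.917). Transposase PGSC0003DMT400039369 was most like PGSC0003DMT400048016 (r = 0.977), PGSC0003DMT400000540 (r = 0.964) and PGSC0003DMT400002831 (r = 0.959). Each was the best match out of a very long list over only 9 libraries, and the values are a description.

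RNase H enzymes cut the RNA strand of RNA-DNA hybrids, and RNase H domains are also part of the polyproteins of many retrotransposons. The study's list holds 5 transcripts annotated as RNase H family proteins, chosen on these libraries. EdgeR called 0 of 5 in the outside libraries against the Wild type, and at an unadjusted p under 0.05 it took 4 higher and 1 lower, with a median log2 ratio of 1.66 beside 0 over all transcripts. DESeq2 called 4 of 5, all but PGSC0003DMT400063698. Over all transcripts the shares were 12.1% at an unadjusted p and 1.37% for DESeq2, but the list was drawn from transcripts already found changed against these Wild type libraries. PGSC0003DMT400063698 had 6.86 to 32.9 normalized effective counts in RNAi periderm with a median of 10.8, against 0 in each Wild type library, which is the same pattern as MuDR mudrA without the exception of line 47 replicate 2. PGSC0003DMT400073611 had 960 to 1287 counts with a median of 1130 in RNAi periderm, against 217, 438 and 429 in the Wild type. PGSC0003DMT400016670 had 67.8 to 125 counts with a median of 92.3, against 13.7, 41.2 and 24.3 in the Wild type. PGSC0003DMT400022247 was the 1 that was lower, with 13.1 to 46.4 counts and a median of 35.5 in RNAi periderm, against 63.9, 70.2 and 66.9 in the Wild type. None of the 5 was called by edgeR or DESeq2 among the lines, on *StRIK* abundance or between outside and other RNAi libraries, and 0 of 5 had an unadjusted p under 0.05 in edgeR there.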

How the data were processed

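Periderm RNA of 12 libraries was analysed from the deposited files. Per the labels and the study's methods, the authors prepared TruSeq libraries, checked reads with FastQC 0.11.2, mapped them with Bowtie2 to the Group Phureja transcriptome and estimated counts per transcript with eXpress 1.5.1. The deposited values are effective counts, that is, expected counts corrected for fragment length and bias that need not be whole and are not normalized between libraries. Libraries summed to between 18650236 and 21585122, and no 2 held identical values. The labels and methods call the replicates biological.

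Counts were rounded, scaled by TMM and tested in edgeR 4.0.16 (R 4.3.3, glmQLFit and glmQLFTest) over all transcripts with at least 10 counts in a comparison, with Benjamini-Hochberg adjustment and a threshold of 0.05. Normalized effective counts are scaled to a library size of 19876858. Limits from a count of 0, taken as 3 counts per library, cover counting error only. CPM used a pseudocount of 0.5 on the log2 scale. Tables and plots were made with matplotlib 3.10.9, pandas 2.3.3 and numpy 2.4.6 under Python 3.11.15. The fits were tested on simulated data.

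The members and lists were chosen with earlier results of these data known. Named transcripts were the 6 members, neighbours within 10 in number that were called or else the 3 with the largest log2 ratios, 5 RNase H transcripts, and the 3 with the highest r over 12 and over 9 libraries for each member with a mean of at least 10 counts. A transcript list of other transposons, of silencing factors or of tissue markers was not analysed here, because the annotation at hand carries none of these identifiers. Alternatives were DESeq2 1.42.0, RLE size factors, filterByExpr, no minimum count, a block for the replicate number, a factor for the lane tag, other *StRIK* measures, other floors and distances, and each library left out in turn.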

Additional observations from a re-analysis of the deposited data

How the results depend on the processing

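At this depth, members under 10 counts were limited by depth, and folds against groups at the floor are bounds. DESeq2 1.42.0 called far more transcripts than edgeR, 504 against 0 for outside libraries against Wild type (with 4 members against 0), 871 against 14 among the lines, 1267 against 2 on *StRIK* abundance and 1139 against 0 for outside against other RNAi libraries. The cause was not tested. Among the lines, 28 were called with no minimum count and 6 with lane tag as a factor. On *StRIK* abundance, 19 were called with RLE size factors, 40 with filterByExpr, 9 with lane tag as a factor, 0 with line as a factor and 0 on the representative isoform. Between outside and other RNAi libraries, 13 were called with no minimum count. With lane tag 6 libraries only, the study's comparison called 35 transcripts in place of 16 and 1 member, the LINE-type retrotransposon, in place of 4. That fit has 2 RNAi libraries in place of 6. All of its libraries took part in the choice of members, so nothing is read from these calls.

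Leaving out each library in turn called 0 to 14 transcripts and 0 to 1 members for outside libraries against Wild type, where the LINE-type retrotransposon reached an adjusted p of 0.048 in edgeR without Wild type replicate 3. Over all alternatives of that comparison its adjusted p lay between 1.18e-07 with DESeq2 and 0.536. It called 10 to 48 transcripts among the lines, 0 to 318 on *StRIK* abundance, where 318 came without line 9 replicate 1, and 0 to 227 between outside and other RNAi libraries, where 227 came without line 9 replicate 1 and 187 without line 9 replicate 3. No member was called among the lines, on *StRIK* abundance or between outside and other RNAi libraries under any alternative run. MuDR mudrA, the LINE-type retrotransposon and TNP2 were not tested, or got no adjusted p, under some of these alternatives. Of 288 fitted ratios of a line over the Wild type over all settings, 0 changed sign. These largely repeat the contrast that chose the members and include members with a group at the floor, so nothing is read from their signs.

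Whether replicate numbers pair the samples was not settled by correlations of same-numbered libraries, which went in both directions. Deviations of same-numbered libraries correlated between −0.505 and 0.503, over 0.1 in 5 of 18 pairs. With the replicate number as a block, 0 transcripts were called for outside libraries against Wild type, 10 among the lines, 0 on *StRIK* abundance and 0 between outside and other RNAi libraries, with 0 members in each. The count of members that differed in state between most RNAi libraries and the Wild type was 3 at a floor of 3, 3 at a floor of 1 and 2 at a floor of 10. The count that differed in every library was 0 at a floor of 3, 1 at a floor of 1 and 2 at a floor of 10. Neighbours within 5, 10 or 20 gave 0 calls by edgeR. At an unadjusted p under 0.05 it took 3 of 16, 5 of 31 and 7 of 67 tested. Over all transcripts that share was 12.1%, so these counts are not a result about the neighbours.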
